A study of Mus musculus with 22 samples.

Results

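Voltage-gated sodium channel genes were followed in mouse brains: 6 genes of the alpha or alpha-like subunits (Scn1a, Scn2a, Scn3a, Scn8a, Scn9a and Scn7a) and 3 of the accessory beta subunits (Scn2b, Scn3b and Scn4b). They were picked by symbol, as the rows of the read count table that carry 1 of these 9 names. The table holds 56748 gene rows, of which 20026 had enough reads to be tested, and all 9 genes were among those. The table has 5 more rows with symbols of this family, which were not analysed here.

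The series asked how an early chemical exposure of the Gulf War illness type, a late cannabidiol treatment and a bacterial stimulus change the aged brain. All 22 mice were C57BL/6J males, dosed for 10 days from 10 weeks of age and killed at 17.5 months or later, and each gave 1 whole-brain library. GW mice had daily intraperitoneal permethrin at 200 mg/kg together with pyridostigmine bromide, an inhibitor of acetylcholinesterase, at 0.7 mg/kg. Ctrl mice had the vehicle of these chemicals. In old age CBD30 mice had intraperitoneal cannabidiol at 30 mg/kg, every day for 28 days and then every 2 days for 2 weeks, and Veh mice its vehicle. LPS mice then had 1 injection of lipopolysaccharide at 0.33 mg/kg, the others PBS, and brains were taken 24 h later. The groups were GWCBD30LPS (4 mice), GWCBD30 (4), GWVehLPS (4), GWVeh (4), CtrlVehLPS (3) and CtrlVeh (3). Exposure was always to both chemicals at once, so permethrin and pyridostigmine cannot be told apart, and cannabidiol was given only to exposed mice in the groups analysed here. The exposure lay more than a year before the brains were taken, so the acute response was not measured.

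Voltage-gated sodium channels open when a neuron depolarizes and carry the inward current of the action potential. The alpha subunit forms the pore, and beta subunits are single-pass membrane proteins that adjust gating and help place the channel in the membrane. Permethrin, a pyrethroid insecticide, binds the alpha subunit and keeps the channel open for longer. Among the pore subunits, Scn1a is best known from inhibitory interneurons and from Dravet syndrome, an epilepsy caused by its loss. Scn2a serves the axon initial segment and unmyelinated axons of excitatory neurons, and Scn8a the mature initial segment and the nodes of Ranvier. Scn3a is mainly a channel of the developing brain, Scn9a one of peripheral sensory neurons, and Scn7a encodes a channel that senses the sodium concentration and is found in glia of the salt-sensing organs.

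Of the 9 genes, 5 lie on chromosome 2 (GRCm38), within 1328 kb, in the order Scn3a, Scn2a, Scn1a, Scn9a and Scn7a. They are not evenly spaced: Scn2a ends at 65767447 and the Scn1a interval begins at 66270778. Genes of other families between them were not examined. The 5 genes run from the start of Scn3a at 65457118 to the end of Scn7a at 66784914, and Scn2a alone is on the forward strand. Scn8a stands by itself on chromosome 15, at 100869858 to 101045938. The 3 beta subunit genes are on chromosome 9, all on the forward strand: Scn3b at 40269217 to 40291618, Scn2b at 45117782 to 45130070 and Scn4b at 45138395 to 45154152. Scn2b and Scn4b are thus neighbours, with 8324 bases between them. In the GENCODE annotation of that build, Scn9a was the one gene of the 9 whose exons overlap those of another gene, 180 bases shared with the antisense transcript Gm13629. How the counting treated strand is not given in the sources used here, so reads there cannot be told apart.

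RefSeq promoter windows, 250 bases before to 50 bases after a gene start (GRCm38.p6), were found for 7 of the 9 genes, Scn3a and Scn3b having no entry. The windows of the neighbouring genes Scn4b and Scn2b are shown because these 2 genes had the highest levels per length of the 9, from start regions of very different base composition. Both are on the forward strand, written 5′ to 3′, with each CG dinucleotide (the letters C then G, the same on both strands) in capitals.
Scn4b, chr9:45138374-45138673: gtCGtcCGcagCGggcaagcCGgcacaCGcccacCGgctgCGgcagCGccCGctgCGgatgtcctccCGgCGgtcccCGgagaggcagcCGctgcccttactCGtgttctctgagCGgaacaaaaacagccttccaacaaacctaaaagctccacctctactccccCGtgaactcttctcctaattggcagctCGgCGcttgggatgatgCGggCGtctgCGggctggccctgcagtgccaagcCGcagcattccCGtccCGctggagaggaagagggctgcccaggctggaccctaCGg
Scn2b, chr9:45117626-45117925: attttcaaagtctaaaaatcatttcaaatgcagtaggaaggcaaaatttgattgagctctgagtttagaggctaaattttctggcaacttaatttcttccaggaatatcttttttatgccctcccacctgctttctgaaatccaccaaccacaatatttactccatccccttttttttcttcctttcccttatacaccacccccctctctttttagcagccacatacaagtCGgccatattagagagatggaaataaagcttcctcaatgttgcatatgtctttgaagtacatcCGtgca
The Scn4b window had 26 CG dinucleotides and a GC content of 66.3%, and the Scn2b window 2 and 38.3%. Over all 32851 promoter windows of the same length the median was 7, with 16.9% holding at least as many as Scn4b and 85.9% at least as many as Scn2b. Among the other windows the count was highest at Scn8a, with 38 at the first of its 2 listed starts, a count reached by 4.95% of windows, and lowest at Scn7a and at the first Scn2a start, with 3 each. These counts describe the sequence and were not set against the expression values.

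Library totals ran from 17.2 to 31.2 M counts (median 21.6 M), and the 9 genes together took 0.162% to 0.188% of a library. The mice are described as separate animals, so the spread between libraries includes that between mice. Pan-neuronal marker scores (the mean over 10 genes of log2 CPM, read counts scaled to the library total) lay between 8.85 and 9.07 in all libraries. One library stood apart in regional markers: CtrlVehLPS replicate 1 had a cerebellar neuron score of 3.14, against 6.62 to 7.37 in the other 21, with 0 counts of Gabra6, the receptor subunit of cerebellar granule cells. It also held 328 CPM of 12 pancreatic enzyme genes, which summed to 2.76 to 4.61 CPM elsewhere. Olfactory bulb neuron scores were 2.62 to 3.64 in CtrlVehLPS, against 1.09 to 1.19 in CtrlVeh (13 genes). Sodium channel fold changes that use CtrlVehLPS and had an unadjusted p under 0.05 are given with and without that replicate.

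Read per length, beta subunits led. In CPM per kb of annotated exon, averaged over the 22 libraries, Scn2b stood at 72.2 and Scn4b at 58.3, and both encode subunits bound to the pore protein by a disulfide bond. The main brain pore subunits followed closely together, at 25.6 for Scn8a, 24.8 for Scn2a and 22.3 for Scn1a, with the non-covalently bound beta subunit gene Scn3b at 20.6. Scn3a, the developmental pore gene, was at 3.75 CPM per kb, and the genes best known outside central neurons were lowest, at 0.833 for Scn7a and 0.786 for Scn9a.

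The steps in this order were not equally firm. Scn2b was above Scn4b in 22 of 22 libraries, and so were Scn4b above Scn8a, Scn3b above Scn3a, and Scn3a above Scn7a. Scn8a exceeded Scn2a in 16 of 22 libraries, with ratios from 0.896 to 1.19, Scn2a exceeded Scn1a in 21, and Scn1a exceeded Scn3b in 17. Scn7a exceeded Scn9a in 12 of 22, so those 2 were not ordered beyond the spread between libraries. Scaling to the longest annotated transcript in place of all exons placed Scn2a at rank 3 with Scn8a at rank 4, and Scn9a at rank 8 with Scn7a at rank 9.

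**Figure D1:**
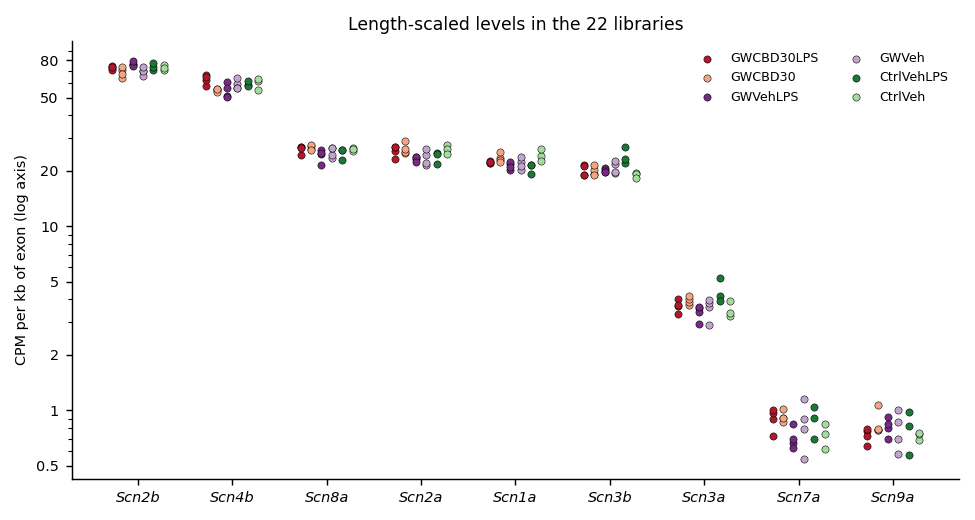
Level of each sodium channel gene in CPM per kb of exon, on a log axis, with 1 point per library and the 6 groups side by side in colour. Scn2b and Scn4b lie above 50, the 3 main pore genes and Scn3b lie near 20, and Scn7a and Scn9a lie near 1.

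Of the summed CPM per kb of the 6 alpha subunit genes, Scn8a took 32.8% ± 1.37, Scn2a 31.8% ± 1.40 and Scn1a 28.6% ± 1.08 (SD over 22 libraries). Scn3a took 4.80% ± 0.62, Scn7a 1.06% ± 0.18 and Scn9a 1.01% ± 0.17. Among the 3 beta subunit genes Scn2b took 47.8% ± 2.00, Scn4b 38.6% ± 2.02 and Scn3b 13.6% ± 1.15. These shares are of CPM per kb of exon, so they are scaled to length and are not shares of reads. The shares of the main pore genes varied little: the Scn1a share, for example, had group means between 27.4% in CtrlVehLPS and 29.8% in CtrlVeh. Other shares varied more for their size. Group means ran from 4.31% in CtrlVeh to 5.89% in CtrlVehLPS for Scn3a, and from 12.5% to 15.3% in the same groups for Scn3b. The highest Scn3a share was 7.09%, in CtrlVehLPS replicate 1, against a highest value of 5.09% in any library of the other 5 groups.

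Across all libraries the highest level of a gene was 1.25 times the lowest for Scn2b and 1.28 times for Scn8a, the narrowest ranges. The widest were in the low genes, 2.11 times for Scn7a and 1.87 times for Scn9a, followed by Scn3a at 1.81 times. Scn7a had 86 to 207 reads a library and Scn9a 147 to 324, and the other 7 genes had at least 688. A floor of 3 counts was worth 0.0963 to 0.175 CPM, well below every value here. CtrlVehLPS replicate 1 held the highest Scn3a and Scn3b of all 22 libraries and the lowest Scn1a and Scn9a.

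**Figure D2:**
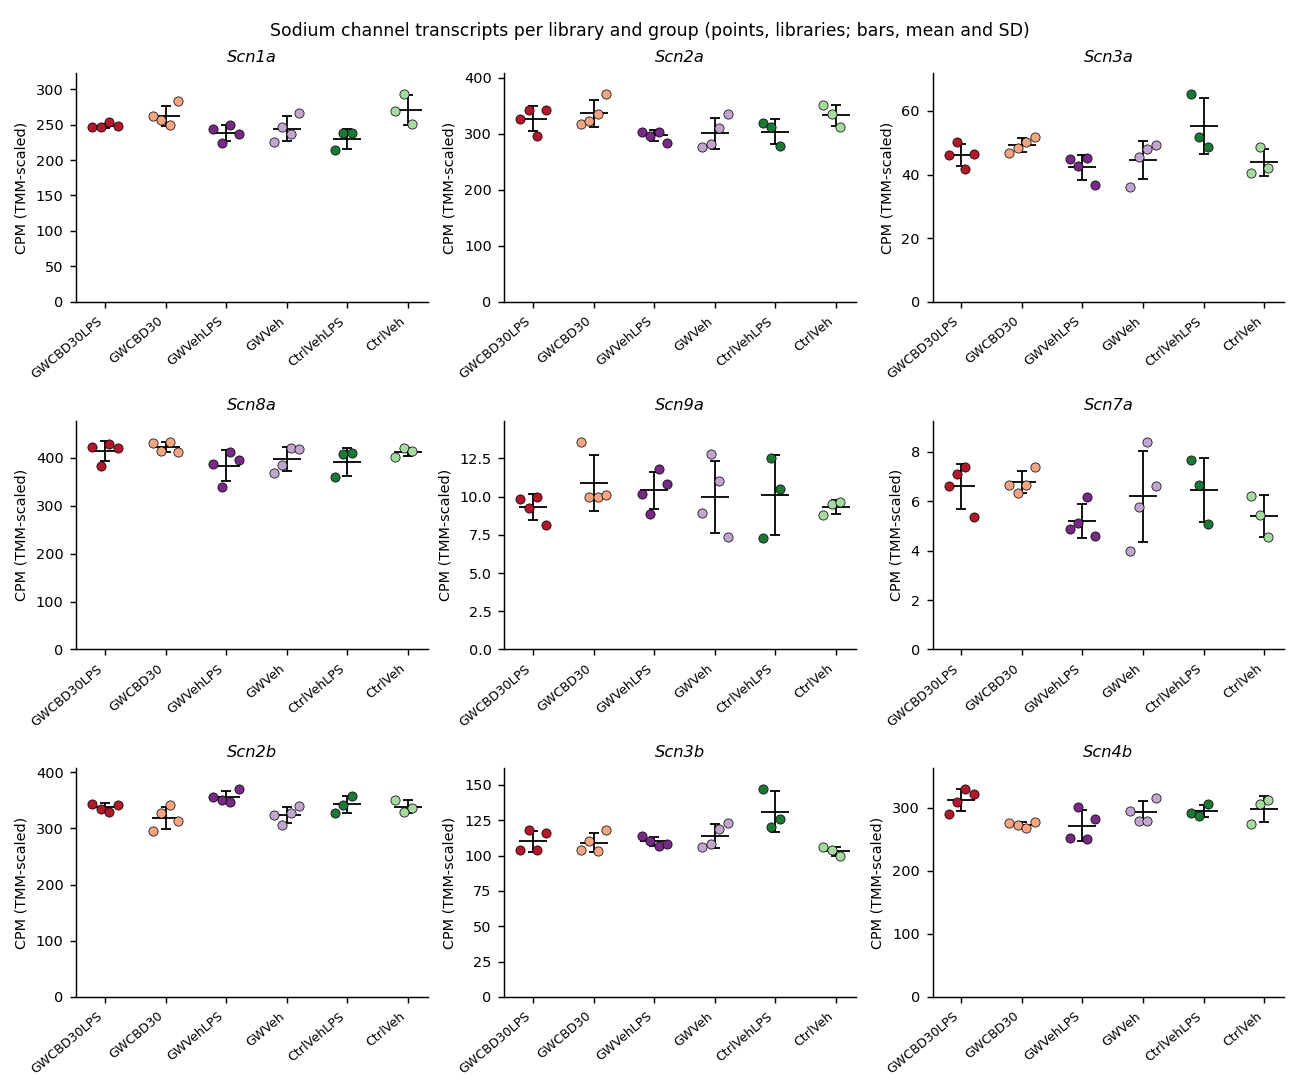
CPM of each of the 9 genes in every library, by group, with the group mean and SD as bars and each axis starting at 0. Groups overlap widely for most genes, and Scn3b stands out by its CtrlVehLPS libraries at 120 to 147 CPM above the CtrlVeh libraries at 99.8 to 106 CPM.

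The first question was whether mice exposed to a sodium channel agent in youth differed in the transcripts of its target in old age. No sodium channel gene passed the threshold (adjusted p of 0.05, edgeR quasi-likelihood test, Benjamini-Hochberg over 20026 genes) between GWVeh and CtrlVeh, where the background over all genes was 0%, and 1 of the 9 had an unadjusted p under 0.05, against 8.80% of all genes. DESeq2 and limma voom also called 0 of 9, with 11 and 176 calls over the whole table. With both LPS states averaged, 0 of 9 passed against a background of 0.03%, again with 1 of 9 at an unadjusted p under 0.05, against 7.76% of all genes, and 0 of 9 in DESeq2 and limma voom. In the averaged comparison the 95% intervals of all 9 genes lay between 0.797-fold and 1.25-fold, GW over Ctrl, so changes beyond those bounds fell outside the intervals. The median log2 fold change of the 9 was -0.06, against 0.006 over all genes tested. These averages include CtrlVehLPS replicate 1. Scn3a, the gene with the unadjusted p under 0.05, was at -0.18 ± 0.07 (adjusted p = 0.612, edgeR), at -0.11 without that replicate and at -0.09 with the cerebellar and bulb scores as covariates.

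The 3 main pore genes are given by library without LPS. Scn2a, the excitatory neuron channel, had 276, 282, 310 and 336 CPM in GWVeh, against 351, 336 and 313 CPM in CtrlVeh. Scn8a, the channel of nodes and initial segments, had 369, 385, 420 and 419 CPM in GWVeh, against 402, 420 and 414 CPM in CtrlVeh. For both genes the groups overlapped, with the lowest values in GWVeh. Scn1a, the interneuron channel, had the 1 unadjusted p under 0.05: 225, 247, 237 and 266 CPM in GWVeh, against 269, 293 and 251 CPM in CtrlVeh. Its log2 fold change was -0.15 ± 0.07 (SE, adjusted p = 0.516, edgeR), and the groups overlapped. The number of genes of the 9 whose groups did not overlap at all was 0, against 9.40% of all genes tested.

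With LPS, exposed and control mice were further apart in Scn3a and Scn3b. Scn3a had 45.0, 42.6, 45.1 and 36.7 CPM in GWVehLPS, against 65.3, 51.9 and 48.6 CPM in CtrlVehLPS. Scn3b, the beta subunit that binds without a disulfide bond, had 114, 110, 107 and 108 CPM in GWVehLPS, against 147, 120 and 126 CPM in CtrlVehLPS. In both genes every GWVehLPS library was below every CtrlVehLPS library, 2 of the 9 genes against 5.41% of all genes tested. Neither passed the threshold: the log2 fold change was -0.39 ± 0.10 for Scn3a (adjusted p = 0.295, edgeR) and -0.26 ± 0.07 for Scn3b (adjusted p = 0.333). The count was 0 of 9 at a background of 0.00499%, with 2 of 9 at an unadjusted p under 0.05, against 7.73% of all genes, and 0 of 9 in DESeq2 and in limma voom. Without the filter on low counts, Scn3a passed at -0.39 (adjusted p = 0.00336).

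Both values include the library that stood apart. Without CtrlVehLPS replicate 1 the log2 fold change was -0.24 for Scn3a and -0.17 for Scn3b (adjusted p = 0.999 for both, edgeR). Cerebellar markers summed to 2840 to 3700 CPM in GWVehLPS and 1030 to 2990 CPM in CtrlVehLPS, with 0 of 14 past the threshold, and Gabra6 was at 0 in the 1 library. Olfactory bulb markers summed to 143 to 210 CPM in GWVehLPS and 201 to 346 CPM in CtrlVehLPS, with 0 of 13 past the threshold. With scores of both lists as covariates and the striatal score added, the values were -0.16 for Scn3a and -0.11 for Scn3b. In whole brain RNA, fewer cells of a type and less RNA per cell cannot be told apart.

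**Figure D3:**
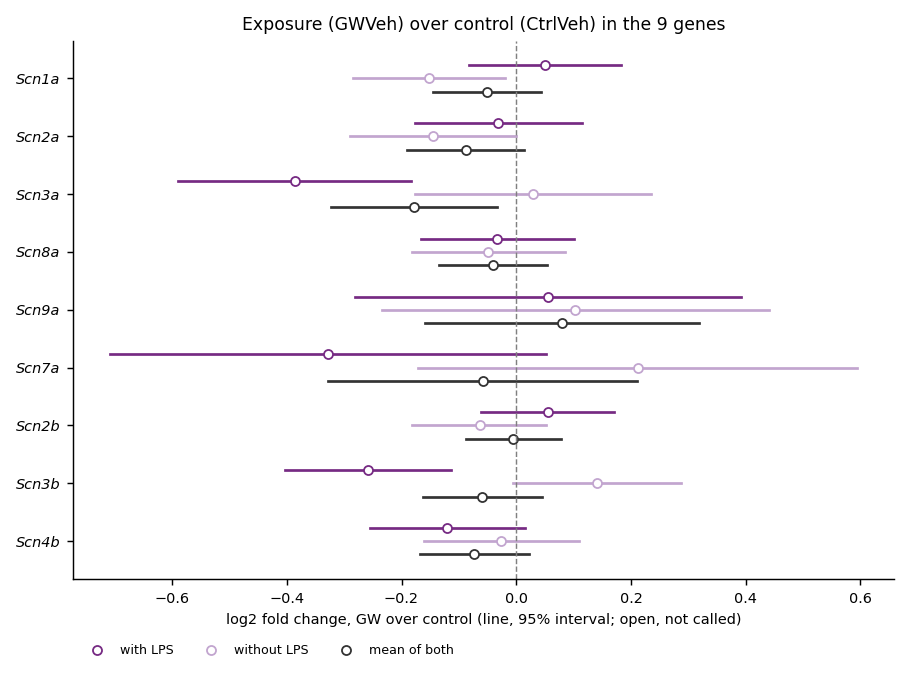
Log2 fold change of each gene, exposed (GWVeh) over control (CtrlVeh), with LPS, without LPS and averaged, as points with 95% intervals. All points are open, since no gene passed the threshold, and Scn3a, Scn7a and Scn3b lie farthest to the left with LPS, at -0.39, -0.33 and -0.26.

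Between LPS and PBS mice, 1 of the 9 genes passed the threshold in 1 arm, with the higher level under LPS. In control mice Scn3b averaged 131 ± 14.3 CPM in CtrlVehLPS and 103 ± 3.24 CPM in CtrlVeh (SD, n = 3 each), from single values of 147, 120 and 126 CPM with LPS against 106, 104 and 99.8 CPM with PBS. Every LPS library was above every PBS library. The log2 fold change was 0.35 ± 0.08 (SE, 95% interval 0.19 to 0.50, adjusted p = 0.0246, edgeR), about 1.27-fold. That is 1 of 9 genes past the threshold at a background of 0.494% (99 of 20026 genes), and 3 of the 9 had an unadjusted p under 0.05, against 12.2% of all genes.

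The Scn3b call was not stable. Without CtrlVehLPS replicate 1 it was 0.25 (adjusted p = 0.186, edgeR), and leaving out CtrlVeh replicate 1, 2 or 3 gave 0.36 (adjusted p = 0.075), 0.35 (adjusted p = 0.113) or 0.32 (adjusted p = 0.152). The direction was the same each time. In this comparison 6 of 13 olfactory bulb markers rose with LPS and 0 fell, their sum being 201 to 346 CPM in CtrlVehLPS and 131 to 144 CPM in CtrlVeh, with 0 markers at 0 counts in each CtrlVehLPS library and 1 or 2 in each CtrlVeh library. Cerebellar markers summed to 1030 to 2990 CPM in CtrlVehLPS and 3070 to 3550 CPM in CtrlVeh, with 0 of 14 past the threshold and Gabra6 at 0 in CtrlVehLPS replicate 1. Of 7 microglial markers 5 rose and 0 fell, with sums of 292 to 321 CPM in CtrlVehLPS and 191 to 202 CPM in CtrlVeh, and their part in the Scn3b result was not tested. With the cerebellar and bulb scores as covariates the Scn3b value was 0.23 (adjusted p = 0.596), and with the striatal score added 0.22 (adjusted p = 0.544).

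The other 2 genes with an unadjusted p under 0.05 in control mice had fold changes of opposite sign. Scn1a had 214, 238 and 238 CPM in CtrlVehLPS, against 269, 293 and 251 CPM in CtrlVeh, every LPS library below every PBS library. Its log2 fold change was -0.24 ± 0.07 (adjusted p = 0.124, edgeR), and -0.19 (adjusted p = 0.321) without CtrlVehLPS replicate 1. Scn3a had 65.3, 51.9 and 48.6 CPM in CtrlVehLPS, against 40.4, 48.7 and 42.2 CPM in CtrlVeh, with a small overlap. Its log2 fold change was 0.34 ± 0.11 (adjusted p = 0.163), and 0.20 (adjusted p = 0.475) without the same library. With the cerebellar and bulb scores as covariates the Scn3a value was 0.08 (adjusted p = 0.92), and the Scn1a value -0.19 (adjusted p = 0.665). Groups that did not overlap numbered 2 of the 9 genes, Scn1a and Scn3b, against 17.3% of all genes tested.

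In exposed vehicle mice LPS left 0 of 9 genes past the threshold at a background of 0.939%, with 1 of 9 at an unadjusted p under 0.05, against 10.4% of all genes, and 0 in DESeq2 and limma voom. That gene was Scn2b, the most abundant beta subunit gene, with 356, 351, 347 and 370 CPM in GWVehLPS, against 323, 306, 327 and 340 CPM in GWVeh. Every LPS library was above every PBS library, a log2 fold change of 0.14 ± 0.05 (adjusted p = 0.307, edgeR), and Scn2b was the 1 gene of 9 without overlap, against 5.87% of all genes. Microglial markers (5 of 7 higher) summed to 278 to 353 CPM in GWVehLPS and 188 to 216 CPM in GWVeh, and endothelial and pericyte markers (2 of 7 higher) to 151 to 167 CPM in GWVehLPS and 115 to 135 CPM in GWVeh. Their part in the Scn2b values was not tested. Scn3b, the gene called in controls, was at 114, 110, 107 and 108 CPM in GWVehLPS, against 106, 108, 119 and 123 CPM in GWVeh. These groups overlapped and the log2 fold change was -0.05.

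In exposed cannabidiol mice LPS again left 0 of 9 past the threshold, at a background of 0.00499%, with 1 of 9 at an unadjusted p under 0.05, against 8.22% of all genes, and 0 in DESeq2 and limma voom. Here it was Scn4b, the beta subunit linked to resurgent sodium current, with 290, 310, 330 and 322 CPM in GWCBD30LPS, against 276, 273, 268 and 277 CPM in GWCBD30. Every LPS library was above every PBS library, a log2 fold change of 0.19 ± 0.06 (adjusted p = 0.402, edgeR), and 1 of 9 genes was without overlap, against 6.24% of all genes. Markers of striatal projection neurons, a cell type rich in Scn4b, summed to 1230 to 1400 CPM in GWCBD30LPS and 1140 to 1200 CPM in GWCBD30, with 0 of 13 past the threshold. With the striatal, cerebellar and bulb scores as covariates the Scn4b value was 0.11.

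Averaged over the 3 arms, LPS left 0 of 9 past the threshold at a background of 3.52% (705 of 20026 genes), with 3 of 9 at an unadjusted p under 0.05, against 17.8% of all genes. Scn1a came closest, at a log2 fold change of -0.12 ± 0.04 (adjusted p = 0.0716, edgeR). DESeq2 called Scn1a, and limma voom called Scn1a and Scn2b. Without GWVeh replicate 1 or without CtrlVeh replicate 3, Scn1a passed with adjusted p of 0.042 or 0.0495. Without CtrlVehLPS replicate 1 it was at -0.10 (adjusted p = 0.117). By arm its log2 fold change was -0.08 in cannabidiol mice, -0.03 in exposed vehicle mice and -0.24 in controls. The other 2 genes were Scn3b, at 0.10 ± 0.04 (adjusted p = 0.16), and Scn2b, at 0.08 ± 0.03 (adjusted p = 0.189), which were at 0.07 and 0.09 without that replicate. In this comparison 6 of 7 microglial markers rose, with sums of 230 to 353 CPM in the LPS groups and 188 to 224 CPM in the PBS groups. Olfactory bulb markers rose in 6 of 13, with sums of 143 to 346 CPM in the LPS groups and 131 to 162 CPM in the PBS groups. Over the 22 libraries Scn1a had r of -0.57 with the microglia score (permutation p = 0.0056, adjusted 0.053), rho of -0.59 (permutation p = 0.0049, adjusted 0.074), -0.55 without the 2 farthest libraries and -0.06 over deviations from group means. Microglia were not the only such score. For brainstem monoamine neurons r was -0.60 (permutation p = 0.0034, adjusted 0.037) and rho -0.56 (permutation p = 0.0072, adjusted 0.084). For endothelial cells and pericytes r was -0.55 (permutation p = 0.0072, adjusted 0.065) and rho -0.70 (permutation p = 0.00061, adjusted 0.032). Over deviations from group means r was -0.52 and -0.49 for these 2 scores. The part of any of these cells in the Scn1a values was not tested. The median over the 9 genes was -0.004, against -0.007 over all genes tested.

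**Figure D4:**
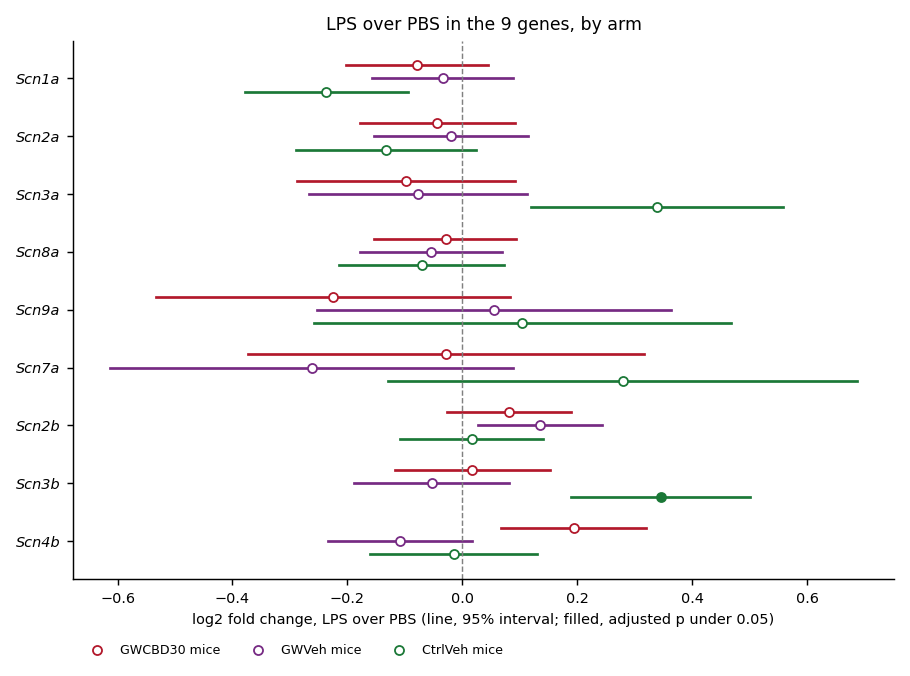
Log2 fold change of each gene, LPS over PBS, in exposed cannabidiol mice, exposed vehicle mice and control mice, as points with 95% intervals. The only filled point, past the threshold, is Scn3b in control mice at 0.35, while the other 2 arms lie near 0 for that gene.

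Cannabidiol in exposed mice called 0 of 9 genes without LPS, with LPS and with both averaged. The background was 0%, 0.24% and 0%, unadjusted p under 0.05 came up in 1, 3 and 2 of the 9 genes, against 6.43%, 7.10% and 8.35% of all genes, and DESeq2 called 0 each time. Limma voom also called 0 without LPS and averaged, but called Scn4b with LPS. Among the pore genes, the averaged log2 fold change was 0.15 ± 0.05 for Scn2a (adjusted p = 0.327, edgeR) and 0.10 ± 0.04 for Scn8a (adjusted p = 0.561). The median over the 9 genes was 0.08, against 0 over all genes tested, and the 95% intervals ran from 0.853-fold to 1.40-fold.

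Scn2a had 326, 342, 296 and 343 CPM in GWCBD30LPS, against 304, 296, 304 and 284 CPM in GWVehLPS. Without LPS it had 318, 322, 336 and 371 CPM in GWCBD30, against 276, 282, 310 and 336 CPM in GWVeh. Both pairs of groups overlapped while the cannabidiol mean was higher in each, at 327 ± 22.1 against 297 ± 9.52 CPM with LPS and 337 ± 24.2 against 301 ± 28.0 CPM without (SD, n = 4 each). Scn4b is given in both LPS states. With LPS it had 290, 310, 330 and 322 CPM in GWCBD30LPS, against 253, 302, 250 and 282 CPM in GWVehLPS, with overlap and a log2 fold change of 0.20 ± 0.06 (adjusted p = 0.259, edgeR). Without LPS it had 276, 273, 268 and 277 CPM in GWCBD30, against 296, 280, 280 and 316 CPM in GWVeh, every cannabidiol library below every vehicle library.

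That Scn4b separation was the 1 of 9 genes without overlap in mice without LPS, against 3.54% of all genes, and its log2 fold change was -0.10. With LPS 1 of 9 was without overlap as well, against 4.27% of all genes: Scn2b, at 344, 335, 330 and 341 CPM in GWCBD30LPS, below its 356, 351, 347 and 370 CPM in GWVehLPS. Its log2 fold change was -0.08. Striatal markers summed to 1230 to 1400 CPM in GWCBD30LPS and 1050 to 1300 CPM in GWVehLPS, with 0 of 13 past the threshold. In limma voom, Scn4b with LPS passed at 0.22 (adjusted p = 0.0426), and with the striatal, cerebellar and bulb scores as covariates in edgeR it was at 0.12 (adjusted p = 0.728). Microglial markers (2 of 7 lower) summed to 230 to 267 CPM in GWCBD30LPS and 278 to 353 CPM in GWVehLPS. Endothelial and pericyte markers (3 of 7 lower) summed to 124 to 135 CPM in GWCBD30LPS and 151 to 167 CPM in GWVehLPS. Their part in these values was not tested. Scn7a, the sodium sensor, had 6.60, 7.09, 7.37 and 5.34 CPM in GWCBD30LPS, against 4.86, 5.12, 6.16 and 4.59 CPM in GWVehLPS, a log2 fold change of 0.35 ± 0.17 (adjusted p = 0.698).

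Whether the LPS response itself differed between arms was tested as an interaction. Exposed vehicle mice against controls gave 0 of 9 genes past the threshold at a background of 0%, with 4 of 9 at an unadjusted p under 0.05, against 8.43% of all genes, and 0 of 9 in DESeq2 and limma voom. For Scn3b the difference between the LPS responses was -0.40 ± 0.10 on the log2 scale (adjusted p = 0.295, edgeR), so the contrast between its call in controls and the -0.05 in exposed mice was itself not past the threshold. The others were Scn3a at -0.42 ± 0.14 (adjusted p = 0.42), Scn7a at -0.54 ± 0.27 (adjusted p = 0.593) and Scn1a at 0.20 ± 0.09 (adjusted p = 0.565). Without CtrlVehLPS replicate 1 these differences were -0.31 for Scn3b, -0.27 for Scn3a, -0.39 for Scn7a and 0.15 for Scn1a. With the cerebellar and bulb scores as covariates they were -0.26 for Scn3b, -0.15 for Scn3a, -0.29 for Scn7a and 0.15 for Scn1a, and with the striatal score added -0.22 for Scn3b. Cannabidiol against vehicle in exposed mice also gave 0 of 9, at a background of 0.0449%, with 1 of 9 at an unadjusted p under 0.05, against 5.69% of all genes, and 0 in both other tools. That gene was Scn4b, at 0.30 ± 0.09 (adjusted p = 0.498), or 0.18 (adjusted p = 0.747) with the 3 region scores as covariates.

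Across the 22 libraries, 198 correlations were computed, 36 between pairs of the 9 genes and 162 with scores of 18 marker lists, on log2 CPM, with two-sided permutation tests (100000 permutations over all libraries, without regard to group) adjusted over the 198. Of these, 19 had an adjusted p under 0.05 for Pearson's r. All points share library depth and tissue sampling. Scn4b varied with the striatal score: r was 0.63 (permutation p = 0.0013, adjusted 0.027) and rho 0.68 (permutation p = 0.00065, adjusted 0.032). Without the 2 libraries farthest from the median score r was 0.70, and over deviations from group means it was 0.52. The striatal score was not tied to Scn4b alone. It had r of 0.63 with Scn3b (permutation p = 0.0029, adjusted 0.034) and -0.65 with Scn9a (permutation p = 0.0011, adjusted 0.025). For Scn3b and Scn9a r was 0.39 and -0.51 without the 2 farthest libraries, and 0.62 and -0.69 over deviations from group means. Scn3b ran against the cerebellar score, with r of -0.74 (permutation p = 0.00086, adjusted 0.025) and rho of -0.56 (permutation p = 0.0077, adjusted 0.085). That relation rests in part on CtrlVehLPS replicate 1: r was -0.38 without the 2 farthest libraries and -0.45 without that one alone.

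Between members, Scn3a and Scn3b had the highest coefficient, r of 0.70 (permutation p = 0.00052, adjusted 0.025) and rho of 0.51 (permutation p = 0.016, adjusted 0.14). It was 0.48 without the 2 farthest libraries. Scn3a and Scn7a, at opposite ends of the chromosome 2 cluster, followed with r of 0.65 (permutation p = 0.00083, adjusted 0.025), rho of 0.62 (permutation p = 0.0025, adjusted 0.054) and r of 0.53 without the 2 farthest. Scn2a, the excitatory neuron channel, ran against the choroid plexus and ependyma score, with r of -0.68 (permutation p = 0.00056, adjusted 0.025), rho of -0.72 (permutation p = 0.00025, adjusted 0.032) and -0.67 without the 2 farthest libraries. Over deviations from group means that r was -0.74. Scn2a ran about as strongly against 4 other scores: r was -0.68 for hypothalamic neurons (permutation p = 0.00059, adjusted 0.025), -0.66 for brainstem monoamine neurons (permutation p = 0.00068, adjusted 0.025), -0.66 for oligodendrocyte precursors (permutation p = 0.0011, adjusted 0.025) and -0.59 for endothelial cells and pericytes (permutation p = 0.0035, adjusted 0.037). The matching rho values were -0.68, -0.51, -0.63 and -0.63 (permutation p = 0.0009, 0.018, 0.0022 and 0.0019, adjusted 0.036, 0.15, 0.054 and 0.053). Without the 2 farthest libraries r was -0.52, -0.52, -0.49 and -0.55 in the same order.

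**Figure D5:**
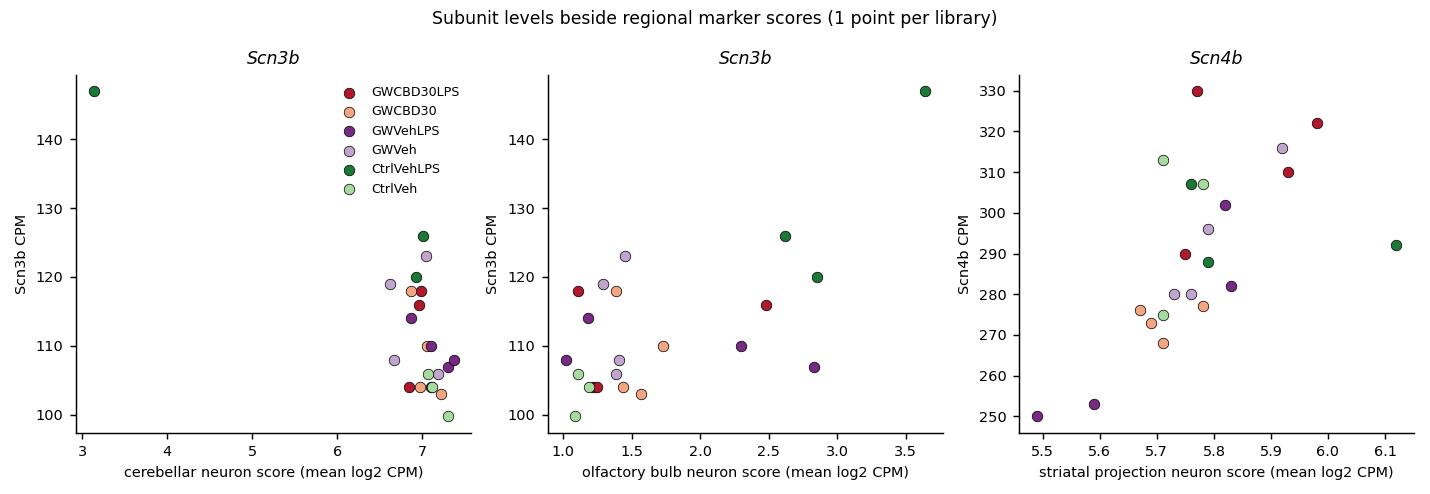
CPM of Scn3b against the cerebellar and olfactory bulb neuron scores and of Scn4b against the striatal projection neuron score, with 1 point per library coloured by group. CtrlVehLPS replicate 1 lies alone at a cerebellar score of 3.14 and an Scn3b level of 147 CPM, while Scn4b is higher in libraries with a higher striatal score.

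The genes most like each member were ranked by Pearson r of log2 CPM over the 22 libraries, and up to 3 of the highest are given as a description. For Scn2a they were Frrs1l (0.92), an AMPA receptor assembly factor, Arap2 (0.90) and Ptprd (0.89), a synaptic adhesion phosphatase. Scn1a was nearest to Abca5 (0.89), Ttc39b (0.87) and Ccnl1 (0.83), and Scn8a to Tcp11l1 (0.90) and Ankrd52 (0.90). Scn3a was nearest to Apc (0.84), Cntnap3 (0.84) and Dcx (0.83), the doublecortin gene of migrating neurons. Scn3b was nearest to Ptk2b (0.86), Meis2 (0.83), a transcription factor gene on the olfactory bulb list, and Sipa1l1 (0.83). Without CtrlVehLPS replicate 1 the Meis2 value was 0.65 and the Dcx value 0.72, while the Frrs1l value was 0.92. Lower values were found for Scn4b (Hpse 0.77, Gpr3 0.72 and Fbxo9 0.70), Scn9a (Sec16a 0.80, Itsn1 0.75 and Tbc1d2 0.73), Scn7a (Plxnc1 0.81, Atrn 0.77 and Myt1l 0.77) and Scn2b (Gfod1 0.83, Irf9 0.80 and Setd7 0.79).

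Genes that work with these channels were given as a list of 20: anchors and adhesion molecules of the initial segment and node, intracellular modulators of the fibroblast growth factor homologous type, ligases and proteases that remove or cleave channel subunits, and partner potassium channels such as Kcnq3. In each of the 12 comparisons 0 of the 20 passed the threshold (edgeR), at backgrounds of 0% to 3.52%. From 0 to 2 of the 20 had an unadjusted p under 0.05, against 5.69% to 17.8% of all genes. The smallest of these p-values in the list came from Kcnq3 with cannabidiol under LPS, at a log2 fold change of 0.22 ± 0.08 (adjusted p = 0.472). For exposure with LPS the lowest were Tnr, the perineuronal and nodal matrix protein tenascin-R, at -0.19 ± 0.07 (adjusted p = 0.538) and Kcnq3 at -0.21 ± 0.09 (adjusted p = 0.568). The median over the list lay between -0.06 and 0.05 in all 12 comparisons.

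The sodium pump exports the sodium that channels let in. Of its subunit genes, Atp1b2, the glial beta subunit, was at a log2 fold change of 0.24 ± 0.07 with LPS averaged over the arms (adjusted p = 0.0503, edgeR), just short of the threshold. By arm it was at 0.29 ± 0.11 in cannabidiol mice (adjusted p = 0.503) and 0.30 ± 0.11 in exposed vehicle mice (adjusted p = 0.259). Atp1b3, another beta subunit, was at -0.17 ± 0.07 with LPS in controls (adjusted p = 0.307).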

How the data were processed

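Whole-number counts of reads for every gene and library were deposited, not normalized by the authors. They come from poly(A) stranded libraries read as pairs of 150 bp, per the labels' protocols. Alignment was to GRCm38/mm10, per the submitters' processing notes. Not given in the sources used here are the aligner, the counter and its strand setting. No molecular identifiers are mentioned, so floors cover counting error only.

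From these counts, edgeR 4.0.16 (R 4.3.3) kept 20026 genes by filterByExpr, scaled libraries by TMM and fitted a robust quasi-likelihood model to all 22 libraries as 6 group means (16 residual degrees of freedom, common biological coefficient of variation 0.103). The 12 comparisons were two-sided, adjusted by Benjamini-Hochberg over all genes kept. The SE is the size of the log2 fold change over the root of its F statistic. CPM use TMM-scaled totals, levels per kb use merged GENCODE exons, and marker scores use a prior count of 2. The procedure was tested on simulated data.

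All 9 members are named. Of the partner and pump lists, genes past the threshold, or else examples of those with the smallest p, are named. A few genes picked in this way are not reported here. Members and lists were chosen with earlier results of these data known. The labels do not state that their replicate numbers pair mice, so a block on these numbers was run only as an alternative. Alternatives were RLE and upper-quartile scaling, 2 other filters, DESeq2 1.42.0, limma voom 3.58.1, a fit to the groups compared alone, the replicate block, region scores as covariates, each library left out in turn and a threshold of 0.1. Correlations without CtrlVehLPS replicate 1 were added after the data were seen.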

Additional observations from a re-analysis of the deposited data

Results flagged for a closer look

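Of 36 groups of 4 libraries tested for a single library far from the rest, 2 had one, and chance gives about 1 in 20. Scn8a had 384 CPM in GWCBD30LPS replicate 2, below the other 3 libraries of that group at 421 to 428 CPM. Scn9a had 13.6 CPM in GWCBD30 replicate 1, above the other 3 at 9.95 to 10.1 CPM, and this was the highest Scn9a level of the 22 libraries. No call in the report rests on either value.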

How the results depend on the processing

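The Scn3b call with LPS in control mice makes that count 1. The count was 2 without a filter on low counts (Scn3a and Scn3b), 2 in limma voom and 2 in DESeq2 (Scn1a and Scn3b in both), and 0 with cerebellar and bulb scores as covariates, 0 with the striatal score added, and 0 in a fit to the groups compared alone, where Scn3b was at 0.34 (adjusted p = 0.121, edgeR). Leaving out single libraries gave counts of 0 to 1. Averaged over the arms, LPS called 0 genes, but 1 at an adjusted p of 0.1 (Scn1a), 2 in limma voom, 1 in DESeq2 and 0 to 1 when single libraries were left out. Exposure with LPS gave 1 without the filter (Scn3a), and cannabidiol with LPS gave 1 in limma voom (Scn4b), against 0 for both. The cause of these changes was not tested. Of 1179 fold changes under other settings 1167 kept their side of the threshold and any called direction, 3 lost and 9 gained a call, and of 1206 with a library left out 4 lost and 2 gained one. None of either kind reversed, and 119 uncalled values changed sign. The replicate numbers gave correlations of -0.089 to 0.133 between same-numbered libraries, 1 of 51 pairs over 0.1. With the replicate block Scn3b stayed at 0.34 (adjusted p = 0.0196) and no count over the 9 genes changed, while LPS in control mice called 124 genes of the whole table, against 99 without the block. Over the whole table that count was 25 to 694 under the other settings and 20 to 132 when single libraries were left out. Depth limits Scn7a and Scn9a most, with 86 to 324 reads a library.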
